A study of Mus musculus with 8 samples.

Results

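The members described here are 67 probes for genes that the study listed as enriched in RA-Zscan4+ cells but that were less than 3-fold higher in RM-Zscan4+ than in RM-Zscan4- cells. The list holds 128 probes among the 42006 of the array. Genes of the Zscan4 signature and a few others, 19 probes in all, were left out by name, 42 probes were at or above the 3-fold ceiling, and the other 67 are the members. They were chosen by measured values of these arrays: the list was drawn up from the RA pair, and the ceiling was set on the RM arrays. The RM and RA differences are therefore descriptions. Where members called by limma are counted in them, the count supports nothing, since the choice of members used the same values.

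The cells were mouse embryonic stem cells (ESCs) of strain 129/Sv that carried Emerald, a green fluorescent protein, under the Zscan4c promoter, so all groups shared the reporter. Cells grown in regular medium (RM) were sorted into RM-Zscan4+ and RM-Zscan4- populations with 3 arrays each, and cells grown with retinoic acid (RA) into RA-Zscan4+ and RA-Zscan4- populations with 1 array each. Each array set the sorted RNA, in Cy3, against a common mouse reference RNA in Cy5, and every level below is the log2 ratio of Cy3 to Cy5 unless it is called an intensity. The RA pair has no replicate, and its images were extracted in a session of their own, so medium and session cannot be told apart. Zscan4 itself separated the sorts on all arrays: its level was 5.08, 5.59 and 5.03 in RM-Zscan4+ against 0.10, 0.21 and 0.98 in RM-Zscan4-, and 6.13 against 1.88 in the RA pair. A probe could be given a gene name only through the list, so markers of pluripotent cells or of other cell types were not analysed here. In sorted populations, a larger share of expressing cells and more RNA per cell cannot be told apart.

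Zscan4 encodes a zinc finger protein of the late 2-cell embryo and of the few ESCs in a culture that pass through a transient state resembling it. That state is known for the transcription of genes and repeats of the early embryo and for telomere lengthening. Retinoic acid, made from vitamin A, acts through nuclear receptors that bind direct repeats of a short hexamer in DNA, and drives ESCs towards differentiation.

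By name, 46 of the 67 members matched a gene of the RefSeq table, 30 by current symbol, 11 by an older symbol and 5 by gene number. Of these, 38 are protein coding, 5 are pseudogenes and 3 are long noncoding RNAs. The other 21 names, mostly older gene models, had no match and are spelled as in the list. Among the matches, Whsc2 is now Nelfa, Pthr1 is Pth1r, Gm854 is Tmem211, D030070L09Rik is Ino80c, 4631416L12Rik is Arhgef26, LOC434179 is Zfp975, B020006M18Rik is Ubtfl1 and LOC229571 is Tdpoz8. The last is kin to the Tdpoz genes that were left out by name, and stayed in because the list gives its older name. Slc27a2 and Hdc lie side by side on chromosome 2, and no other pair of matched members are direct neighbours.

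The array reads each member through 1 designed probe of 60 bases. The probes printed here belong to the members on which the results below turn: 4 whose RA-Zscan4+ spot carries an outlier flag, and 2 whose RA difference came with a low RA-Zscan4- level. They are written 5′ to 3′ in lower case, with nothing marked in capitals.
Gm1070: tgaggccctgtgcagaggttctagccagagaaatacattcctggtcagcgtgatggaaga
Gm854: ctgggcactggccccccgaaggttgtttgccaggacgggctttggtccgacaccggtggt
A830029E22Rik: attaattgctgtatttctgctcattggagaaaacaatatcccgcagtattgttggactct
Pthr1: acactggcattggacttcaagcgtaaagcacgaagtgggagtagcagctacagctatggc
Slc27a2: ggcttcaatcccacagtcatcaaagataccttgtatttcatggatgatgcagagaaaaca
Jam2: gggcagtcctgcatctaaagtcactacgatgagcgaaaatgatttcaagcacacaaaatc
The GC content of the members' probes ran from 21.7% to 66.7% with a median of 45.0%, beside a median of 44.2% for the list probes above the ceiling and 43.3% for all probes. Probes of LOC673656 and LOC673289 share a run of 19 bases, and each shares 15 bases with LOC677603. These 3 members may therefore not be independent of each other, which was not tested. The probe of LOC631120 shares 20 bases with that of 1700001F09Rik, a list probe that is no member. No other pair of a member and a list probe shared a run of 14 bases or more on the same strand.

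RefSeq promoters, 250 bases before to 50 after the start site (build GRCm38.p6), were at hand for 34 members. Direct repeats of retinoic acid receptors, that is a pair of hexamers with 2 or 5 bases between them, were looked for on both strands and were in 0 of the 34, beside 0.27% of 27025 promoters. Each hexamer could be the usual AGGTCA or a common variant of it. TGCACAC, the letters ascribed to Zscan4, was in 1 of 34 promoters (2.94%), that of Cpb2, beside 4.19% of all. TATAAA was in 1 (2.94%), that of A830029E22Rik, beside 14.2%. CCAAT was in 17 of 34, beside 37.9% of all. Median GC content was 53.8% in the members' promoters and 52.7% in all. These counts describe letters in the window and no binding. Printed below are Cpb2 (chr14:75242037-75242336, plus strand), the 1 holder of TGCACAC, with its reverse complement in capitals, Avpi1 (chr19:42128944-42129243, minus strand), a member with a steady RM difference, and Hspa1a (chr17:34972107-34972406, minus strand), just under the ceiling. In the last pair the capitals mark CCAAT read on the other strand.
Cpb2: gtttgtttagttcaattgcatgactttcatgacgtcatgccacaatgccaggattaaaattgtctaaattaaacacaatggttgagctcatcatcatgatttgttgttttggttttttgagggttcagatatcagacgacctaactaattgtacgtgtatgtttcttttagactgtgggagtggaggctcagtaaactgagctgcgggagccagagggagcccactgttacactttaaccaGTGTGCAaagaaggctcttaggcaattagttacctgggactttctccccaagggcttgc
Avpi1: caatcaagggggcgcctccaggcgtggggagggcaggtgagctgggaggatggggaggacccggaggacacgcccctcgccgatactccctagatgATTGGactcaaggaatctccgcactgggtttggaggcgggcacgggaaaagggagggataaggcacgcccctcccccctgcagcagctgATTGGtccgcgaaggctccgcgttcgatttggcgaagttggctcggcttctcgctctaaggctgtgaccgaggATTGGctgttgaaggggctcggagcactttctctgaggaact
Hspa1a: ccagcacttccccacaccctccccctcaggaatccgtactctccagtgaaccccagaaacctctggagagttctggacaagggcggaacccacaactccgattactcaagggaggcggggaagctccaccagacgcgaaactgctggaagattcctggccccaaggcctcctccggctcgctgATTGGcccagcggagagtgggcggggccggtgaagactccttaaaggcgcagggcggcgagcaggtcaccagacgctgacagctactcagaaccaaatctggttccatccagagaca

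In RM, most members were modestly higher in Zscan4+ cells and a smaller set lay near 0. The median member was 1.87-fold higher (0.90 on the log2 scale, beside -0.01 for all probes). Across the 3 replicate pairs the members' median log2 difference was 0.85, 1.16 and 0.63. The difference was above 0 in all 3 pairs for 52 of the 67 members, where 15.3% of all probes did so. All 3 RM-Zscan4+ arrays were above all 3 RM-Zscan4- arrays for 51 members, beside 4.96% of all probes. Pair 2 held the largest difference for 43 members and pair 3 the smallest for 44. The list probes above the ceiling had the same order of pairs, with medians of 2.92, 3.53 and 2.47, and so did Zscan4. The images of replicate 2 were extracted in another session than those of replicates 1 and 3, and the part of the session or of the sort in this order was not tested.

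By limma at an adjusted p under 0.15, with no fold asked for, 20 members were called higher in RM-Zscan4+, beside 0.348% of all probes. None was called lower, beside 0.05% of all probes, and at an unadjusted p under 0.05 limma also gave 0 lower members, beside 3.38% of all probes. With the replicate number as a block, limma called 43 members higher, beside 1.85% of all probes. The count fell to 4 without RM-Zscan4+ replicate 1, to 4, 5 and 12 without RM-Zscan4- replicates 1, 2 and 3, and to 14 without RM-Zscan4+ replicate 2. Since the ceiling was set on this contrast, these counts are a description only.

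**Figure D1:**
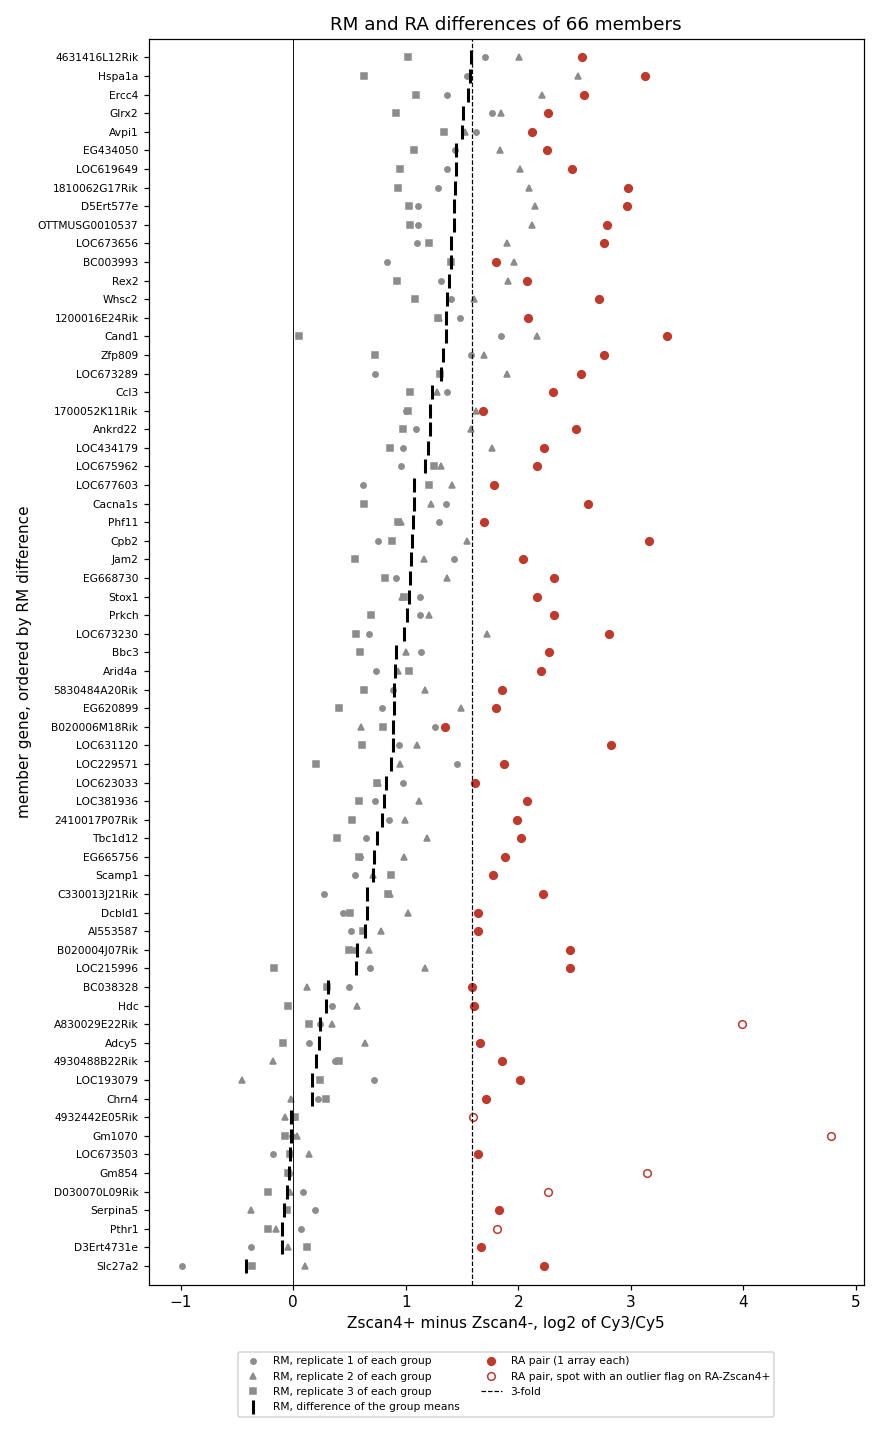
Difference between Zscan4+ and Zscan4- arrays on the log2 scale (x axis) for 66 of the members (y axis, ordered by the RM difference); grey symbols are the 3 RM replicate pairs, black bars the difference of RM means, red points the single RA pair, open where the RA-Zscan4+ spot carries an outlier flag, and the dashed line 3-fold. The lowest 16 members lie around 0 in RM and hold all 6 open points, and BC003993 alone has an RA difference, 1.80, below one of its RM pairs.

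Along the RM difference the lowest member, Slc27a2, stood 0.32 below the next on the log2 scale. The widest gap between the others was 0.26, and it is used here to describe the members in 2 stretches. It is narrower than the SE of some members, such as 0.32 for LOC215996, and whether it is a real division was not tested. The lower 16 ran from 0.749-fold (Slc27a2) to 1.24-fold (BC038328), and 2 of them were higher in all 3 pairs. The upper 51 ran from 1.48-fold (LOC215996) to 2.99-fold (4631416L12Rik), and 50 of them were higher in all 3 pairs, LOC215996 being the exception. The pairs make up the mean by which the members were ordered, so these pair counts follow largely from the order. The lower stretch was also dimmer in RM-Zscan4- cells, with a median Cy3 intensity of 81.0, 58.0 and 74.9 on the 3 arrays, against 153, 103 and 172 for the upper stretch. For comparison, 95% of the negative control spots of an array stayed below an intensity of 31.0 to 49.0. The mean RM difference of 9 members was below 0, and 1 of these, Gm854, was below 0 in all 3 pairs. D3Ert4731e, a gene model and the next lowest after Slc27a2, was at 0.01, 0.12 and 0.15 in RM-Zscan4+ and at 0.38, 0.17 and 0.03 in RM-Zscan4-, which overlap, and at 1.76 and 0.09 in the RA pair.

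At the ceiling, the members just inside were 4631416L12Rik at 2.99-fold, Hspa1a at 2.96-fold and Ercc4 at 2.94-fold. Just outside were BC080695 at 3.13-fold and EG624262 at 3.55-fold. These genes lie closer to each other than their replicate pairs do: Hspa1a had pair differences of 1.55, 2.53 and 0.63, and BC080695 of 1.27, 2.53 and 1.14 on the log2 scale. The ceiling therefore parts genes whose RM differences overlap.

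In the RA pair the members were higher in Zscan4+ cells by a median of 4.48-fold over the 61 with no flagged spot, beside 0.989-fold for all probes and 12.5-fold for the 42 list probes above the ceiling. At least 3-fold was reached by 60 of the 61, beside 0.486% of all probes, a count that the list fixes. B020006M18Rik, a relative of the nucleolar factor Ubtf, was at 2.55-fold. This value rests on signal near background. On the RM-Zscan4- arrays and on RA-Zscan4- its Cy3 intensity, 34.2 on the last, did not exceed the 95th percentile of the negative control spots. With the values of the series matrix, 61 of the 61 reached 3-fold. The part of the low signal in this difference was not tested. Of the 61, 22 were under 4-fold and 13 over 6-fold. The largest unflagged values were 10.0-fold for Cand1, 8.95-fold for Cpb2, 8.73-fold for Hspa1a, 7.88-fold for 1810062G17Rik and 7.80-fold for D5Ert577e. The smallest beside B020006M18Rik were 3.02-fold for BC038328, 3.04-fold for Hdc, 3.06-fold for LOC623033 and 3.12-fold for Dcbld1. Without the dye normalization of the scanner software, 45 of the 61 reached 3-fold from mean pixels and 44 from median pixels, and 46 did with normexp and loess. With the processed Cy3 signal alone, which keeps that normalization and leaves out Cy5, 49 did.

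The RA difference exceeded the RM difference by a median of 1.28 on the log2 scale over the 61 members, beside -0.01 for all probes. The RA difference was above each of the 3 RM pairs for 60 of the 61, and in BC003993, the exception, it was 1.80 while pair 2 was at 1.97. With 1 RA array per sort and members picked for a large RA and a small RM difference, this excess is a description with no test.

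Among the nuclear factors, 7 of the 11 listed entries were members, and their RM difference ran from 1.87-fold to 2.94-fold with a median of 2.52-fold. All 7 were higher in the 3 pairs, beside 15.3% of all probes, and limma called 4 of 7 higher in RM (Arid4a, Zfp809, Rex2 and Ercc4), beside 0.348%. In the RA pair they ran from 3.25-fold to 6.77-fold. Whsc2, a subunit of the NELF complex that holds RNA polymerase II near promoters, was at 2.68, 3.56 and 2.77 in RM-Zscan4+ and at 1.28, 1.95 and 1.69 in RM-Zscan4-. The RA pair stood at 4.15 and 1.43. The 2 RM groups did not overlap, and the RA-Zscan4+ array was above all of them.

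Ercc4, the XPF nuclease of nucleotide excision repair, was at 1.48, 2.01 and 1.60 in RM-Zscan4+, at 0.11, -0.19 and 0.51 in RM-Zscan4-, and at 2.46 and -0.13 in the RA pair. Zfp809, a zinc finger protein that silences retroviruses in stem cells, was at 2.20, 2.46 and 1.78 against 0.61, 0.76 and 1.05, and at 3.04 against 0.28 in the RA pair. Arid4a, which binds the retinoblastoma protein, was 1.87-fold higher in RM and 4.61-fold in RA. In each of these genes the lowest RM-Zscan4+ array was above the highest RM-Zscan4- array. Stox1, a winged helix factor, was 2.04-fold higher in RM and 4.50-fold in RA. Phf11, named for a PHD finger and classed as a pseudogene in the RefSeq table, was 2.09-fold higher in RM and 3.25-fold in RA.

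Rex2, a zinc finger gene, had one of the highest ratios to the reference: 4.29, 4.44 and 3.90 in RM-Zscan4+ and 2.98, 2.53 and 2.97 in RM-Zscan4-. In the RA pair it was at 4.14 and 2.07. The RA-Zscan4+ level lay within the RM-Zscan4+ levels, while the RA-Zscan4- level was below all RM-Zscan4- levels.

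Of the stress, protein and RNA handling genes, 5 of the 6 listed were members. All 5 were higher in the 3 RM pairs with the flagged spot of Cand1 kept, beside 15.3% of all probes, and 2 were called higher in RM (Bbc3 and Glrx2), beside 0.348%. Their median RM difference was 2.56-fold and their median RA difference 4.85-fold, and the RA difference reached 10.0-fold, the largest of any unflagged member. Hspa1a, the stress-inducible chaperone Hsp70, was at 1.21, 2.04 and 0.67 in RM-Zscan4+ and at -0.33, -0.49 and 0.05 in RM-Zscan4-. The RA pair stood at 2.98 and -0.15. The spread among its RM-Zscan4+ arrays was wide, and its RM difference was 1.57 ± 0.35 (SE, n = 3 per group).

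Cand1, which exchanges the substrate receptors of cullin ubiquitin ligases, was at 1.32, 1.69 and 0.80 in RM-Zscan4+ and at -0.53, -0.48 and 0.74 in RM-Zscan4-. The last of these spots, on RM-Zscan4- replicate 3, carries an outlier flag. With the spot kept the RM difference was 2.56-fold. With it dropped, as in the fit, the log2 difference was 1.77, over the ceiling, so Cand1 is a member only because the rule keeps flagged spots. In the RA pair it was at 3.20 and -0.12, and neither spot was flagged.

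Bbc3, the p53 target Puma that promotes apoptosis, was at 0.83, 0.81 and 0.47 in RM-Zscan4+, at -0.30, -0.20 and -0.13 in RM-Zscan4-, and at 2.22 and -0.06 in the RA pair. Its RA-Zscan4+ level was above every RM level and its RA-Zscan4- level above every RM-Zscan4- level. Glrx2, a glutaredoxin of mitochondria, was 2.84-fold higher in RM and 4.81-fold in RA.

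All 8 listed entries of signalling, receptors and channels were members. Their RM difference ran from 0.933-fold to 2.82-fold, 5 of 8 were higher in all 3 pairs, beside 15.3% of all probes, and 3 were called higher (Prkch, Ccl3 and Avpi1), beside 0.348%. Avpi1, a gene induced by vasopressin, had one of the smallest errors in the RM fit. It was at 1.62, 1.68 and 1.61 in RM-Zscan4+ and at -0.01, 0.15 and 0.27 in RM-Zscan4-, a 2.82-fold difference with an SE of 0.09 on the log2 scale (n = 3 per group), and at 2.03 and -0.09 in the RA pair. Here the RA-Zscan4+ level stood 0.40 above the RM-Zscan4+ mean.

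Ccl3, a chemokine that draws macrophages, was far below the reference on all arrays, at -2.36, -2.56 and -2.81 in RM-Zscan4+, at -3.73, -3.84 and -3.84 in RM-Zscan4-, and at -1.31 and -3.62 in the RA pair. Its groups did not overlap. Prkch, the eta isoform of protein kinase C, was 2.02-fold higher in RM and 4.98-fold in RA. Cacna1s, a subunit of the L-type calcium channel of skeletal muscle, was at 2.10-fold and 6.14-fold, and Tbc1d12, which holds a domain of Rab GTPase activators, at 1.67-fold and 4.07-fold.

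Adcy5, an adenylyl cyclase, showed the other pattern. It was at 0.11, 0.45 and 0.03 in RM-Zscan4+ and at -0.03, -0.18 and 0.13 in RM-Zscan4-, which overlap, and at 1.66 and 0.00 in the RA pair. Its Cy3 intensity was 127 in RA-Zscan4+ and between 54.7 and 139 on the RM arrays, so the unscaled value lay within their range. The arrays differed in brightness, with a median probe at 118 on RA-Zscan4+ and at 122 to 241 on the RM arrays. With Cy3 alone, scaled for the brightness of each array, Adcy5 in RA-Zscan4+ stood 0.96 above the RM-Zscan4+ mean on the log2 scale. The entry spelled Chrn4 was at 1.12-fold in RM and 3.28-fold in RA, and its intensity was at or below the control percentile on 7 of the 8 arrays.

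Of the surface, adhesion, trafficking and cytoskeleton list, 3 of 6 entries were members, each with a difference above 0 in the 3 RM pairs. Limma called 0 of them in RM at an adjusted p under 0.15, against 3 at an unadjusted p under 0.05, beside 6.72% of all probes in either direction. Dcbld1, a transmembrane protein, was 1.58-fold higher in RM and 3.12-fold in RA, Scamp1, of secretory carrier membranes, 1.63-fold and 3.41-fold, and Jam2, a junctional adhesion molecule, 2.07-fold and 4.13-fold. Of the enzymes and secreted proteins, all 4 listed were members, and limma called 0 in RM, against 1 at an unadjusted p under 0.05, which was Cpb2, beside the same 6.72%. Cpb2, a carboxypeptidase of blood plasma, was at 0.17, 0.31 and 0.15 in RM-Zscan4+, at -0.58, -1.24 and -0.73 in RM-Zscan4-, and at 2.07 and -1.09 in the RA pair. Its RA-Zscan4+ level stood 1.86 above the RM-Zscan4+ mean.

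Hdc, which makes histamine, was at 0.15, 0.42 and 0.49 in RM-Zscan4+ against -0.19, -0.15 and 0.53 in RM-Zscan4-, and at 1.44 against -0.16 in the RA pair. Serpina5, an inhibitor of serine proteases, was at -0.01, -0.06 and 0.00 against -0.20, 0.31 and 0.06, and at 1.81 against -0.02. Both overlapped between the RM groups. Their RA-Zscan4+ intensities were 74.1 and 98.1, and all 8 arrays were above the control percentile.

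The other 40 members are gene models without an assigned role. Of these 31 were higher in all 3 RM pairs, beside 15.3% of all probes, and 11 were called higher in RM, beside 0.348%. The RM difference ran from 0.932-fold to 2.99-fold with a median of 1.85-fold. Their unflagged RA differences ran from 2.55-fold to 7.88-fold with a median of 4.24-fold. The brightest was EG434050, with an RA-Zscan4+ intensity of 13340. LOC673656, LOC673289 and LOC677603, whose probes share letters, were 2.65-fold, 2.48-fold and 2.11-fold higher in RM, and 6.77-fold, 5.87-fold and 3.44-fold in RA. B020004J07Rik, now Pramel17, of the Prame-like family expressed in early embryos, was at 1.48-fold in RM and 5.49-fold in RA.

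**Figure D2:**
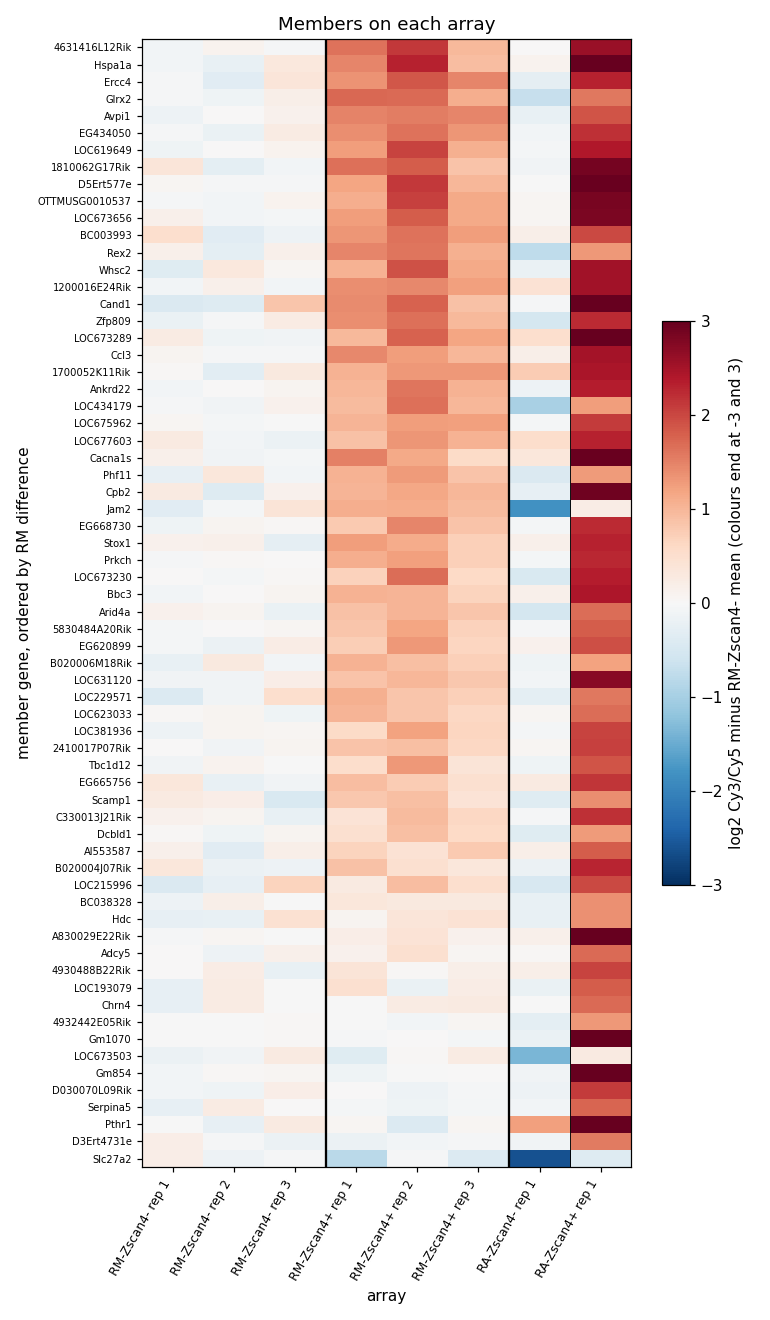
Level of 66 of the members (rows, ordered by the RM difference) on the 8 arrays (columns), as the log2 ratio of Cy3 to Cy5 minus the mean of the 3 RM-Zscan4- arrays; colours end at -3 and 3. The RA-Zscan4+ column is the reddest for most members, and Slc27a2, Jam2 and LOC673503 are blue in the RA-Zscan4- column.

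The 2 sides of the RA difference were then set against the RM arrays of the same sort. Because the members were picked for a large RA and a small RM difference, the choice bore on how far the 2 shifts differ. Only how this excess was divided between the 2 arrays is described. For most members the shift lay in the RA-Zscan4+ array. It was above all 3 RM-Zscan4+ arrays for 61 of the 67, beside 26.8% of all probes, and above their mean by a median of 1.18 over the unflagged members, beside -0.01. The same held for 36 of the 42 list probes above the ceiling, with a median shift of 0.74. The RA-Zscan4- array was within 1.5-fold of the RM-Zscan4- mean for 58 members, a count not made over all probes, and its median shift was -0.08, beside -0.02. It was below all 3 RM-Zscan4- arrays for 23 members, beside 31.8% of all probes. By limma, 3 members were called lower in RA-Zscan4-, beside 1.35% of all probes, and 1 higher, beside 1.47%. These arrays also chose the members, so nothing is read from the counts.

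Of the 61 unflagged members, 42 had only the RA-Zscan4+ array beyond the RM range of its sort, 13 had both arrays beyond it and 6 only the RA-Zscan4- array. Over all probes these classes were not counted. Each side taken alone held for 26.8% (RA-Zscan4+ above) and 31.8% (RA-Zscan4- below) of all probes, so nothing is read from the division. The 6 members with only the RA-Zscan4- array beyond were Slc27a2, Jam2, Rex2, Glrx2, Phf11 and LOC434179. They are the members whose RA-Zscan4+ level was not above the RM-Zscan4+ levels.

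**Figure D3:**
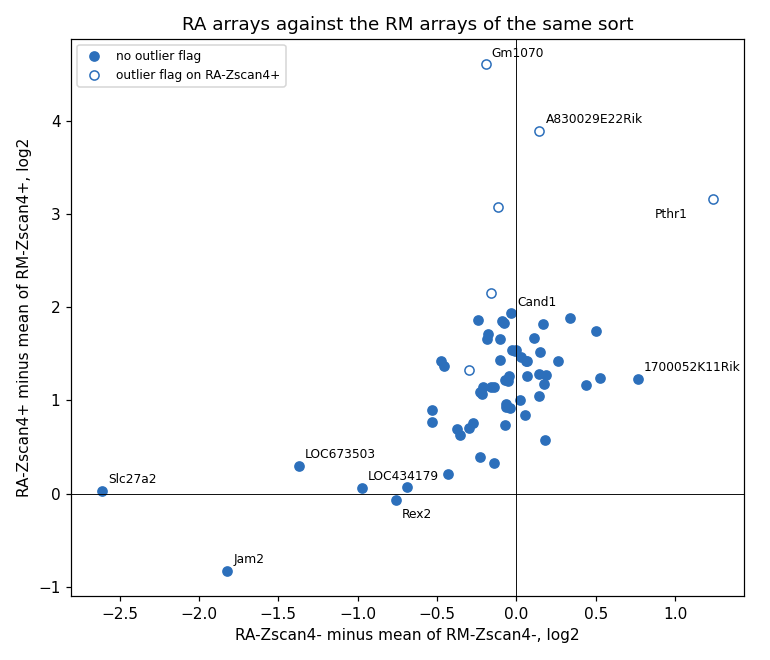
Shift of the RA-Zscan4- array from the RM-Zscan4- mean (x axis, log2) against the shift of the RA-Zscan4+ array from the RM-Zscan4+ mean (y axis, log2) for 66 of the members; open points carry an outlier flag on the RA-Zscan4+ array. Most points lie near 0 on the x axis and about 1 above 0 on the y axis, while Slc27a2, Jam2 and LOC673503 lie over 1 to the left.

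Slc27a2, an enzyme that activates very long chain fatty acids, was the clearest of these. It was at 2.46, 3.22 and 2.85 in RM-Zscan4+, at 3.45, 3.11 and 3.21 in RM-Zscan4-, at 2.87 in RA-Zscan4+ and at 0.65 in RA-Zscan4-. The RA-Zscan4+ level was within the RM range, and the 4.68-fold RA difference came with a RA-Zscan4- level 2.61 below the RM-Zscan4- mean. Its Cy3 intensity was 210 in RA-Zscan4-, and between 741 and 2174 on the other 7 arrays.

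Jam2 was at 4.32, 4.33 and 4.17 in RM-Zscan4+, at 2.89, 3.17 and 3.61 in RM-Zscan4-, at 3.45 in RA-Zscan4+ and at 1.40 in RA-Zscan4-. Both RA levels were below all RM arrays of their sort, and lay 0.83 and 1.82 below the RM means on the log2 scale. LOC673503 was bright on all arrays, at 1.19, 1.59 and 1.80 in RM-Zscan4+ and at 1.37, 1.45 and 1.83 in RM-Zscan4-. It was at 1.83 in RA-Zscan4+ and at 0.18 in RA-Zscan4-. With Cy3 alone, scaled to the 75th percentile of each array, the RA-Zscan4- shifts of Slc27a2, Jam2 and LOC673503 were -2.15, -1.82 and -1.27, the same direction as with the ratio.

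Outlier flags marked 24 probes on the RA-Zscan4+ array, 0.0571% of all, and 6 of them were members: Pthr1, D030070L09Rik, Gm854, Gm1070, 4932442E05Rik and A830029E22Rik. The software flags a spot whose pixels are uneven or whose signal departs from the background or replicate population. All 6 lie in the lower stretch, none was flagged on an RM array, and no member was flagged on the RA-Zscan4- array. Their pixel SD on RA-Zscan4+ was at least 0.308 times the mean Cy3 intensity, with a median of 1.30, against a median of 0.0749 for the 61 unflagged members. The mean pixel was 1.00 to 4.81 times the median pixel, against 0.972 to 1.18 in the unflagged members.

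Each flagged RA difference was read in 3 ways: from the processed signals that the rule used, from mean pixels without the scanner's dye normalization, and from median pixels treated likewise. D030070L09Rik, a subunit of the INO80 chromatin remodelling complex, had a mean Cy3 intensity of 6102 and a median pixel of 1268 on RA-Zscan4+, against a mean of 598 on RA-Zscan4- and 853 to 2097 on the RM arrays. Its RA difference was 4.80-fold in the processed signals, 4.78-fold from mean pixels and 1.35-fold from median pixels. Gm1070 had a mean of 1919 and a median pixel of 579 on RA-Zscan4+, against 87.3 on RA-Zscan4-, and a RA difference of 27.5-fold, 20.7-fold and 7.47-fold. Gm854 was at 8.84-fold, 7.25-fold and 3.87-fold. In these 3 the step from mean to median pixels was the larger one, and Gm1070 and Gm854 stayed over 3-fold.

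For the other flagged members the step from processed to unprocessed signals counted as well. A830029E22Rik, whose intensity was at or below the control percentile on 7 of 8 arrays, was at 15.9-fold in the processed signals, 3.92-fold from mean pixels and 2.87-fold from median pixels. 4932442E05Rik was at 3.03-fold, 2.20-fold and 1.16-fold. Pthr1, the receptor for parathyroid hormone, had like mean and median pixels on RA-Zscan4+, 456 and 454, with 35.6 to 74.0 on the RM arrays. Its Cy5 intensity was also higher on RA-Zscan4+ than on RA-Zscan4-, at 143 against 57.3, and the RA difference was 3.52-fold, 1.93-fold and 1.84-fold. With median pixels 4 of the 6 were under 3-fold. The part of the uneven spots in the RA differences was not tested beyond these values.

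**Figure D4:**
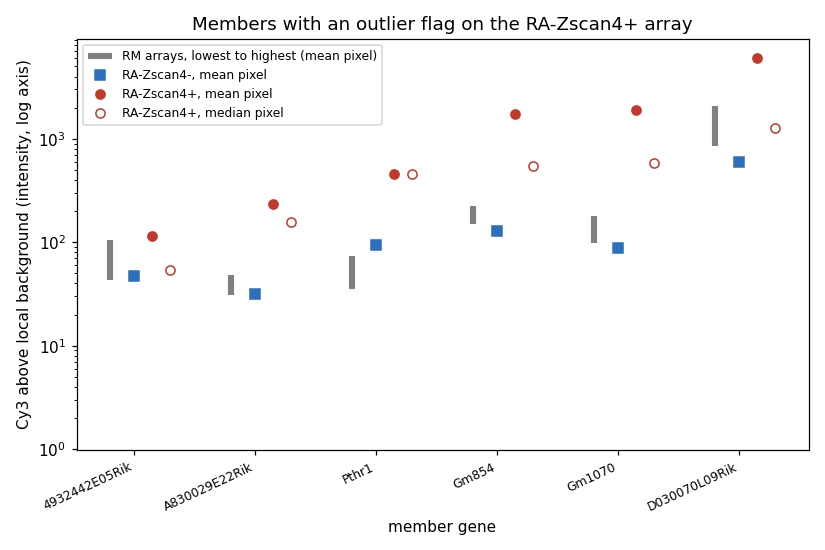
Cy3 intensity above local background (log axis) of the 6 members with an outlier flag on the RA-Zscan4+ array: grey bars span the 6 RM arrays, blue squares are RA-Zscan4- and red points RA-Zscan4+, filled for the mean and open for the median pixel. For 5 of the 6 the open point is below the filled one, and for Pthr1 the filled point at 456 and the open one at 454 coincide.

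The members were dimmer than the median probe on the Zscan4- arrays, but not on the Zscan4+ arrays. Their median Cy3 intensity was 129, 87.0 and 136 on the RM-Zscan4- arrays, beside 217, 136 and 209 for all probes, and 78.0 on RA-Zscan4-, beside 114. On the RM-Zscan4+ arrays it was 267, 187 and 196, beside 241, 122 and 194, and on RA-Zscan4+ it was 350, beside 118. On the RA-Zscan4- array 5 members (7.46%) were at or below the 95th percentile of the negative controls, beside 2.16% of all probes. On the RA-Zscan4+ array 0 were, beside 4.11%. The list was drawn up from this RA pair, so these counts are a description only. For 4 members all 3 RM-Zscan4- arrays were at or below this percentile, so their fold differences rest on a level near background.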

How the data were processed

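RNA of sorted ESCs was measured on 8 two-colour arrays. The authors deposited, per array, Cy3 and Cy5 intensity values from Agilent Feature Extraction A.7.5.1 after background subtraction and dye normalization, with pixel statistics and outlier flags, and a series matrix of log10 values. Groups came from the sample labels.

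The log2 ratio of processed Cy3 to Cy5 was taken per spot. The rule for members keeps flagged spots. The fits used neither control spots nor spots that the software flags as uneven or as outliers of their population. Where a member has a flagged spot on an RA array its RA value is missing from the fit, and Cand1 is fitted without RM-Zscan4- replicate 3. Group means were fitted over all 8 arrays with lmFit and eBayes of limma 3.58.1 (R 4.3.3), with Benjamini-Hochberg adjustment over all probes. The RM threshold was an adjusted p under 0.15, without a fold. The RA pair used 3-fold alone. Dim is meant against the 95th percentile of the negative control spots. The number of arrays limits the precision. The labels call the RM arrays biological replicates.

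Replicate numbers from the labels were taken to pair the RM arrays, since deviations from group means correlated at 0.388, 0.562 and 0.592 over probes. Replicate 2 of both sorts was extracted in another session, so these correlations cannot tell paired samples from a shared session. Image extraction gave 3 sessions. In the promoter search AGTTCA also counted as a receptor hexamer, and in the same search so did its relative with the letters GGTTCA. The fit was tested on simulated data with 41113 probes. There limma recovered 98% of probes raised by 2 in RM on the log2 scale, more than any member, with 37 false calls. It recovered 89% of those lowered by 2 in RA-Zscan4-, with 40 false calls. The simulated noise was independent between arrays and gave the RA arrays the spread of the RM arrays. The rates check the code and do not measure how well changes of the members are found.

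The members, role lists and comparisons were chosen with earlier results of these data known. Gene names are the study's list, read from page images, so a few may be misspelled. Genes were named in the text by a fixed rule: those with an assigned role, the extremes of each difference, those around the ceiling, those flagged on the RA-Zscan4+ array and those below 0 in RM. LOC434179, BC003993, EG434050, B020004J07Rik, LOC631120 and the members whose probes share letters were named after their values were seen. Alternatives were the flagged spots, the background correction, loess, mean and median pixels, Cy3 alone, the series matrix, a filter on dim probes, the replicate block, each RM array left out and other thresholds. Python scripts used numpy and pandas. The values of 1 member and of 1 list probe just above the ceiling are not reported here singly, and the member is left out of the plots.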

Additional observations from a re-analysis of the deposited data

How the results depend on the processing

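The number of members called higher in RM at an adjusted p under 0.15 was 20, and it moved most: 32 with normexp and loess on mean signals, 43 with the replicate number as a block (pairing), 0 with the t-statistics of the methods (60 members with spots on all arrays, 44 of them at an unadjusted p under 0.05), 5 at a false discovery rate of 0.05, and from 4 to 20 when 1 RM array was left out. The cause was not tested. The number with an RA change unlike the RM change was 0, and 5 with flagged spots kept, which adds the 6 flagged members to the fit. The members were picked for this excess, so its calls support nothing. With the block it was also 0, and the other counts were not refitted with the block. Of the members lower in RA-Zscan4-, 3 became 1 with Cy3 alone and 1 at a false discovery rate of 0.05, and 2 to 3 with 1 array left out. The 1 higher member became 0 with Cy3 alone, 0 at a false discovery rate of 0.05 and 0 to 1 with 1 array left out. The members' median RA-Zscan4- shift, -0.08, had the other sign with median pixels (0.03) and Cy3 alone (0.04).

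Other values stayed within 1.5 times or the spread of pairs: the RM median between 0.70 and 1.17, the RA median between 1.79 and 2.17, and the rule's count between 59 and 72 (66 without flagged spots, chosen after seeing the data, as were median pixels with flagged spots kept and mean pixels without dye normalization). Of the single members' RM values, 0 turned direction among those called. No count of pairs was made with an array left out. Signal near the negative controls limits the dim members.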
